A study of Mus musculus with 8 samples.

Results

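The 10 genes described here encode the machinery of class I antigen presentation. They were chosen by name as B2m, H2-K1, H2-D1, Tap1, Tap2, Tapbp, Psmb8, Psmb9, Psme1 and Psme2. All 10 are among the 16647 gene rows of the count table, and 7 had enough counts to be tested between populations. They were measured in Tri-PyMT cells, which were grown from the metastatic mammary tumour of a mouse with MMTV-PyMT, Fsp1-cre and Rosa26mT/mG. MMTV-PyMT expresses a viral oncogene in mammary epithelium. Fsp1-cre expresses the Cre recombinase under the promoter of Fsp1, which is S100a4. Rosa26mT/mG marks cells red until Cre acts and green afterwards. The groups are the GFP+ and the RFP+ populations of this line. Both carry all 3 transgenes, both grew in DMEM with 10% serum, and both were sorted by flow cytometry and profiled by Drop-seq. Nothing in the labels names an added interferon, a contact with immune cells or a host strain, and the line stands for cultured tumour cells without their tissue.

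Class I molecules carry short peptides from inside the cell to its surface, where CD8 T cells read them and natural killer cells sense their absence. The peptides are cut by the proteasome, in which interferon can exchange the standard catalytic subunits for immunoproteasome subunits and to which the PA28 cap can bind. The TAP transporter moves them into the endoplasmic reticulum, where the loading complex fits them to a heavy chain bound to beta-2 microglobulin. Tumour cells often carry less of this machinery, and many of its genes respond together to interferons.

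Each population had 2 libraries, each pooled over 2 sequencing lanes, so n is 2 libraries per population for every mean. Cells with fewer than 500 counts were left out, which kept 7390 of 7400. GFP+ labelled libraries held 1597 and 1798 cells, and RFP+ labelled libraries 1998 and 1997. Library totals were between 2550319 and 3081009 counts, and median counts per cell between 1166 and 1358. No barcode was shared between libraries among the cells used. The reporter rows went against the labels: CUSTOM_GFP had 99.7 and 104 CPM (a gene's counts scaled to one common total per library) in GFP+ labelled libraries, against 612 and 590 CPM in RFP+ labelled libraries. CUSTOM_RFP had 2943 and 3053 CPM in GFP+ labelled libraries, against 132 and 137 CPM in RFP+ labelled libraries. Directions below follow the labels. S100a4, the source of the Cre promoter, had 1843 and 2114 CPM in the GFP+ labelled libraries, against 648 and 676 CPM in the RFP+ labelled ones. The summed epithelial markers were at 1518 and 1430 CPM in GFP+ labelled libraries, against 3373 and 3464 CPM in RFP+ labelled ones. The summed mesenchymal markers were at 6011 and 6398 CPM in GFP+ labelled libraries, against 3166 and 3062 CPM in RFP+ labelled ones. The labels do not say whether 2 libraries of a population came from 2 cultures, so the p-values reflect the spread between these 4 libraries alone.

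Most of the 10 genes lie in the major histocompatibility complex on chromosome 17 (GRCm38, GENCODE M21). H2-K1 spans chr17:33996017-34000347 on the minus strand and H2-D1 chr17:35262730-35267499 on the plus strand. Between them lie Psmb9 (chr17:34181987-34187764), Tap1 (chr17:34187553-34197225), Psmb8 (chr17:34197721-34201454) and Tap2 (chr17:34203527-34216321). Tapbp lies at chr17:33915899-33929292. Outside the complex, B2m is at chr2:122147686-122153083, Psme1 at chr14:55578123-55581529 and Psme2 at chr14:55587441-55591113. Tap1 and Psmb9 start head to head in RefSeq, with 225 bases between their start sites.

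The upstream sequences of the 3 class I molecule genes are shown because these genes carry most of the counts and are known to share regulatory elements. Capitals mark matches to a kB motif (GGGGATTCC) or to a pair of interferon regulatory factor half-repeats spelled GAAANNGAA or GAANNGAAA, searched on both strands. The sequences are from RefSeq (GRCm38.p6), written 5′ to 3′ on the strand of the gene. The H2-K1 stretch is chr17:34000349-34000518 on the minus strand, the B2m stretch chr2:122147518-122147647 on the plus strand. The shorter stretches are chr17:34000429-34000458 of H2-K1 on the minus strand and chr17:35262923-35262952 of H2-D1 on the plus strand. The H2-D1 stretch lies upstream of the RefSeq start but inside the GENCODE span of H2-D1 given above.
H2-K1 upstream: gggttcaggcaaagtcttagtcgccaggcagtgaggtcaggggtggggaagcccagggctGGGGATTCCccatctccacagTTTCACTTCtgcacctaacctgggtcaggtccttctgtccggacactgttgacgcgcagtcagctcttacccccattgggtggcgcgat
B2m upstream: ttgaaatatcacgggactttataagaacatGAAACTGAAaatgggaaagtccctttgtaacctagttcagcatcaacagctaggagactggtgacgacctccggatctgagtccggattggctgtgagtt
H2-K1 element: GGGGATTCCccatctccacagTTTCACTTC
H2-D1 element: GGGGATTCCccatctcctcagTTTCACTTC

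The H2-K1 stretch and its H2-D1 counterpart were identical at 155 of 170 aligned positions (91.2%). In the 30 bases from the kB motif to the end of the interferon regulatory factor motif the pair differed at 1 position, A18T, counted from 1 at the first G of the kB motif with the base of H2-K1 first. The kB spelling occurred in 0.218% of 27025 mouse RefSeq promoters (250 bases before the start), and among the 9 of the 10 genes with a promoter entry it occurred in H2-K1 and H2-D1. GAAANNGAA occurred in 7.16% of all promoters and, among these genes, in B2m. GAANNGAAA occurred in 6.34% and was found in H2-K1 and H2-D1. The CCAAT box (34.5% of promoters) was found in B2m, H2-K1, H2-D1, Tap1, Tapbp and Psmb9. The core of the CRE motif (TGACG, 17.9%) was found in B2m, H2-K1, H2-D1, Tap1, Psmb9 and Psme2. A spelling of the interferon gamma activated site, TTCNNNGAA (7.18%), was found in Psmb8. None of these spellings overlaps another in the printed stretches. These matches describe the letters in the windows and say nothing of binding in these cells.

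All 7 tested genes had lower mean CPM in the GFP+ than in the RFP+ labelled libraries, and 6 of them fell past the threshold (edgeR adjusted p of 0.05). The 6 are B2m, H2-K1, H2-D1, Tapbp, Psme1 and Psme2, and none rose. Over all 7595 genes tested, 14.9% were called lower and 15.7% higher. The median log2 fold of the 7 genes was -0.31, beside 0.0024 over all genes. Summed over all 10 genes, GFP+ labelled libraries were at 1712 and 1719 CPM, against 2155 and 2201 CPM in RFP+ labelled libraries, a ratio of 0.787. In sums over a library, fewer expressing cells and less RNA per cell cannot be told apart.

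**Figure D1:**
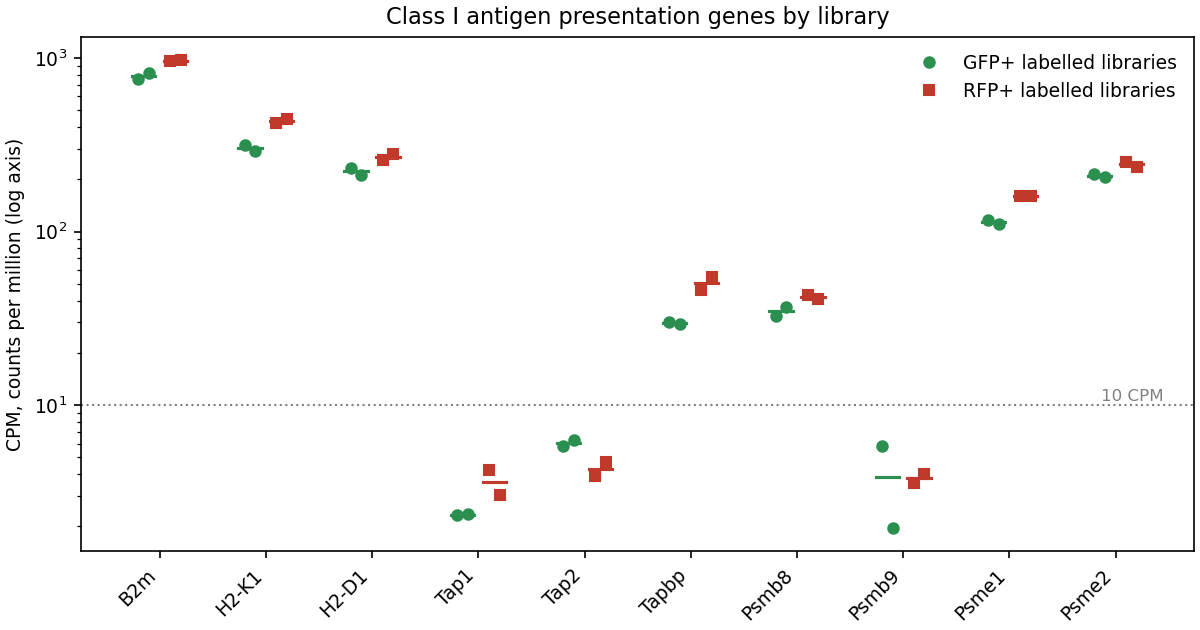
CPM of the 10 genes (log axis) in each GFP+ labelled library (circles, left of each gene) and each RFP+ labelled library (squares, right), with bars at the mean of 2 libraries. The 7 genes above the 10 CPM line were tested, and their GFP+ labelled libraries all sit below their RFP+ labelled ones. The share of all tested genes that separate in this way was not counted, and Psmb8 was not called lower.

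Transcripts of the class I molecule itself were lower. The counts are of RNA, not of protein or of molecules at the surface. B2m, the light chain that every classical class I molecule needs to reach the surface, was at 756 and 823 CPM in GFP+ labelled libraries, against 961 and 972 CPM in RFP+ labelled libraries. Both GFP+ labelled libraries lay below both others, and they differed more from each other than the RFP+ labelled pair did. The log2 fold was -0.31 ± 0.054 (SE, edgeR adjusted p = 2.19e-05), with means of 789 ± 47.2 CPM in GFP+ and 966 ± 7.99 CPM in RFP+ labelled libraries (SD, n = 2 each).

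H2-K1, a classical heavy chain that holds the peptide, was at 316 and 290 CPM in GFP+ labelled libraries and at 423 and 447 CPM in RFP+ labelled ones. The groups stood well apart: 303 ± 18.3 CPM in GFP+ against 435 ± 16.8 CPM in RFP+ labelled libraries (SD, n = 2 each). The log2 fold was -0.54 ± 0.062 (SE, edgeR adjusted p = 6.2e-09). H2-D1, the other classical heavy chain measured, was at 234 and 212 CPM in GFP+ labelled libraries, against 260 and 280 CPM in RFP+ labelled libraries. Its groups did not overlap but lay closer together than those of H2-K1. Its log2 fold was -0.29 ± 0.069 (SE, edgeR adjusted p = 0.00125), and the call was lost with DESeq2 (adjusted p = 0.0677).

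The ratio of the heavy chains was also compared. H2-D1 had 0.740 and 0.732 counts per count of H2-K1 in GFP+ labelled libraries, against 0.614 and 0.627 in RFP+ labelled ones. The ranges did not overlap, and an exact two-sided permutation test of 2 against 2 libraries cannot give less than the p of 0.333 it gave, so no difference between the heavy chains is called. In cells with matched epithelial counts, described below, the log2 folds were closer, at -0.34 for H2-K1 and -0.26 for H2-D1. H2-K1 per count of B2m was 0.418 and 0.352 in GFP+ labelled libraries and 0.440 and 0.460 in RFP+ labelled libraries (exact permutation p = 0.333). H2-D1 per count of B2m overlapped between the populations, at 0.309 and 0.258 in GFP+ and 0.270 and 0.288 in RFP+ labelled libraries (exact permutation p = 1.0). Heavy chains are polymorphic between mouse strains, the labels name no strain background, and the effect of mismatches to the reference on these counts was not tested. In the last 500 bases of their annotated transcripts, H2-K1 shares 0.44% of its 50-base words with H2-D1 and H2-D1 shares 9.53% of its words with any other gene.

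Of the loading complex, Tapbp moved furthest. Tapbp encodes tapasin, the bridge that holds the heavy chain at the TAP transporter. It was at 30.02 and 29.4 CPM in GFP+ labelled libraries, against 46.1 and 54.9 CPM in RFP+ labelled libraries. The GFP+ labelled pair was nearly level and the RFP+ labelled pair spread more, with a clear gap between them. The log2 fold was -0.78 ± 0.15 (SE, edgeR adjusted p = 6.36e-05), the largest fall of the 7 genes tested, on 78 and 75 counts in GFP+ labelled libraries and 142 and 164 in RFP+ labelled ones.

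The subunits of the transporter had few counts. Tap1 had 6 and 6 counts in GFP+ labelled libraries and 13 and 9 in RFP+ labelled libraries. Tap2 had 15 and 16 counts in GFP+ labelled libraries and 12 and 14 in RFP+ labelled libraries. The GFP+ labelled pair lay below the other for Tap1 and above it for Tap2. Both stayed under the filter of 10 CPM, and in a fit without the filter neither passed (Tap1 log2 fold -0.64, edgeR adjusted p = 0.528; Tap2 0.47, edgeR adjusted p = 0.547). Summed over both subunits, GFP+ labelled libraries were at 8.08 and 8.63 CPM and RFP+ labelled libraries at 8.11 and 7.70 CPM, so the ranges overlapped. The 95% interval of Tap1, -1.61 to 0.33, holds the fold seen for Tapbp, and that of Tap2, -0.24 to 1.19, lies above it.

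Among the catalytic subunits of the immunoproteasome, no difference was called. Psmb8 (LMP7, the chymotrypsin-like subunit) was at 32.7 and 36.9 CPM in GFP+ labelled libraries, against 43.2 and 40.8 CPM in RFP+ labelled libraries. The groups did not overlap, yet the log2 fold of -0.29 had a 95% interval of -0.58 to 0.0046 and an edgeR adjusted p of 0.129. Psmb9 (LMP2) had 15 and 5 counts in GFP+ labelled libraries and 11 and 12 in RFP+ labelled libraries, so the GFP+ labelled pair enclosed the other, and in the fit without the filter its log2 fold was 0.019 (edgeR adjusted p = 0.98). Psmb10, the third inducible subunit and not among the 10 genes, was at 75.1 and 75.7 CPM in GFP+ and 84.1 and 78.0 CPM in RFP+ labelled libraries (log2 fold -0.12, edgeR adjusted p = 0.417).

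The standard subunits that these replace were measured beside them. Psmb5, replaced by Psmb8, was at 77.4 and 82.3 CPM in GFP+ and 83.7 and 77.3 CPM in RFP+ labelled libraries, with overlapping ranges (log2 fold -0.03, edgeR adjusted p = 0.873). Psmb6, replaced by Psmb9, fell to 423 and 401 CPM in GFP+ labelled libraries, against 512 and 532 CPM in RFP+ labelled libraries (log2 fold -0.35 ± 0.058, edgeR adjusted p = 6.47e-06). Psmb7, replaced by Psmb10, was at 30.02 and 33.3 CPM in GFP+ and 42.2 and 37.8 CPM in RFP+ labelled libraries (log2 fold -0.35, edgeR adjusted p = 0.0689). Psmb8 per count of Psmb5 was 0.423 and 0.448 in GFP+ labelled libraries, against 0.516 and 0.528 in RFP+ labelled ones. Psmb10 per count of Psmb7 went the other way, at 2.50 and 2.27 in GFP+ and 1.99 and 2.06 in RFP+ labelled libraries. Each ratio separated the populations, with the smallest exact permutation p this design allows (0.333).

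Transcripts of both subunits of the PA28 cap fell. Psme1 (PA28 alpha) was at 116 and 111 CPM in GFP+ labelled libraries, against 160 and 159 CPM in RFP+ labelled libraries. Libraries of a population were nearly level and the populations far apart, with a log2 fold of -0.51 ± 0.083 (SE, edgeR adjusted p = 6.48e-06). Psme2 (PA28 beta) was at 214 and 206 CPM in GFP+ labelled libraries, against 252 and 236 CPM in RFP+ labelled libraries. Its gap was smaller, with a log2 fold of -0.23 ± 0.069 (SE, edgeR adjusted p = 0.00997). The call for Psme2 was lost in several other settings, among them without GFP+ library 2 (edgeR adjusted p = 0.0609) and without RFP+ library 1 (edgeR adjusted p = 0.0911).

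Psme2 is also uncertain because 55.2% of the 50-base words in the last 500 bases of its transcript occur in its copies Psme2b and Gm7928. The row of Psme2b had 48 and 42 counts in GFP+ labelled libraries and 92 and 74 in RFP+ labelled libraries, and it too fell (log2 fold -0.66 ± 0.19, edgeR adjusted p = 0.00781). That call did not pass without RFP+ library 1 (edgeR adjusted p = 0.131). With DESeq2 the call for Psme2b was lost (adjusted p = 0.189). For Psme1 the shared words were 17.5%, with Gm7776 and Gm46496. Psme1 per count of Psme2 was 0.541 and 0.538 in GFP+ labelled libraries, against 0.635 and 0.675 in RFP+ labelled ones (exact permutation p = 0.333).

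Gene length and base composition moved with the difference. B2m, Psme1, Psme2, H2-K1 and Psmb8 are among the shorter genes tested, with transcripts of 860 to 1628 bases beside a median of 3011 bases over tested genes. All of the 10 except B2m have a GC content above the median of 49.0%. With length and GC offsets fitted per gene, 4 of the 7 remained called lower, beside 12.5% of all genes. They were B2m at a log2 fold of -0.20, H2-K1 at -0.35, Tapbp at -0.67 and Psme1 at -0.30. H2-D1 then had -0.15 (edgeR adjusted p = 0.118) and Psme2 -0.04 (edgeR adjusted p = 0.69).

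The epithelial state also moved with the populations. In an alternative added after seeing the data, only cells with 3 to 5 epithelial counts among 1000 were kept in every library, which left 266 and 220 cells in GFP+ and 610 and 574 cells in RFP+ labelled libraries. Of the 7 genes, B2m remained called lower (log2 fold -0.45), beside 1.73% of all 6893 genes tested. All 7 log2 folds stayed below 0, with H2-K1 at -0.34 (edgeR adjusted p = 0.166), Tapbp at -0.70 (0.422) and Psme1 at -0.39 (0.405). Psmb8 was at -1.22 ± 0.48 (SE, edgeR adjusted p = 0.158) in these fewer cells.

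**Figure D2:**
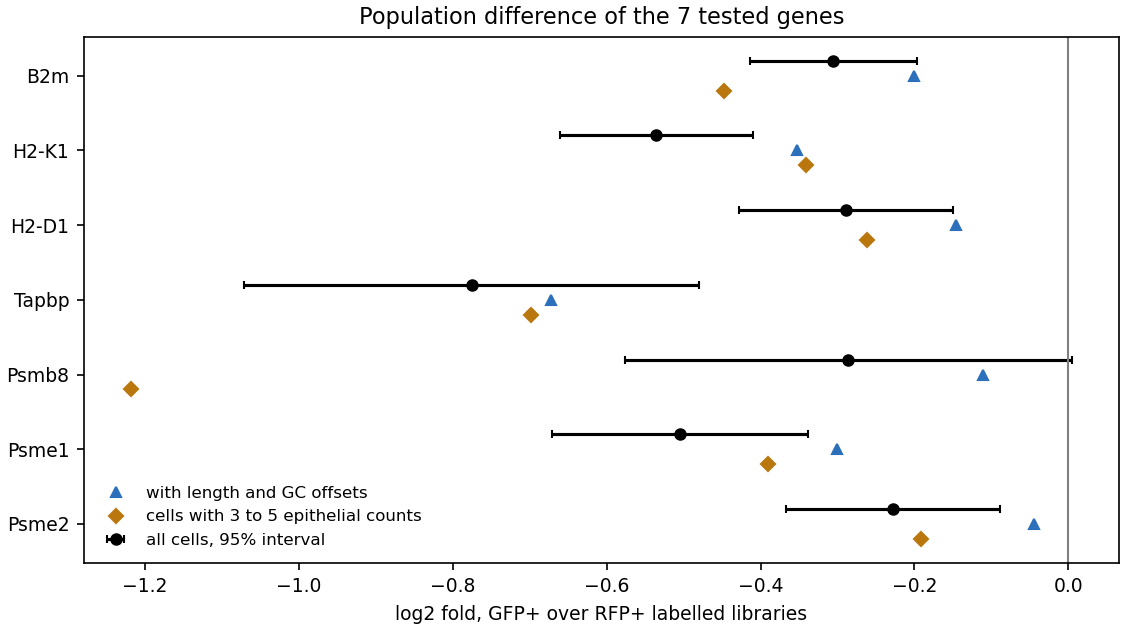
Log2 fold of GFP+ over RFP+ labelled libraries for the 7 tested genes, from all cells with 95% intervals (circles), with length and GC offsets (triangles) and in cells with 3 to 5 epithelial counts (diamonds). All points lie below 0, with Psme2 nearest to it under the offsets at -0.04 and Psmb8 farthest at -1.22.

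In single cells the same order appeared as a shift in the share of cells with a count. Each cell was thinned to 1000 counts, which left out 178 and 565 cells in GFP+ and 453 and 574 cells in RFP+ labelled libraries. B2m had a count in 52.0% and 55.0% of cells in GFP+ labelled libraries, against 60.6% and 61.0% in RFP+ labelled libraries. The exact Clopper-Pearson 95% intervals were 49.4 to 54.6% and 52.2 to 57.8% in GFP+ and 58.1 to 63.0% and 58.4 to 63.5% in RFP+ labelled libraries, so no interval of a GFP+ labelled library reached those of the others. Without thinning the shares were 66.2% and 63.7% in GFP+ and 70.7% and 70.3% in RFP+ labelled libraries. Intervals cover counting error only, and no cell type in these cultures is known to lack B2m, so no background share from free RNA can be given.

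H2-K1 had a count in 26.4% and 24.7% of thinned cells in GFP+ labelled libraries, against 34.2% and 36.2% in RFP+ labelled libraries. Its intervals did not overlap between the populations. H2-D1 was at 19.1% and 18.8% in GFP+ and 22.1% and 24.1% in RFP+ labelled libraries, a smaller gap. Its GFP+ intervals overlapped that of RFP+ library 1. Psme1 was at 10.3% and 11.03% in GFP+ and 15.6% and 14.5% in RFP+ labelled libraries. Its intervals in GFP+ library 2 and RFP+ library 2 overlapped slightly. Psme2 was at 19.1% and 20.03% in GFP+ and 20.3% and 21.1% in RFP+ labelled libraries, with overlapping intervals. Tapbp was at 3.17% and 2.92% of cells in GFP+ and 4.79% and 4.99% in RFP+ labelled libraries, with overlapping intervals. Psmb8 lay at 2.89% and 3.97% in GFP+ and 4.08% and 4.01% in RFP+ labelled libraries, with overlapping intervals. Tap1, Tap2 and Psmb9 had a count in 0.211 to 0.492% of cells in every library, which is 3 to 7 cells.

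For B2m, cells within a library differed little more than counting alone would give, while the 10-gene sum spread somewhat more in RFP+ labelled libraries. The variance of B2m counts over their mean was 1.06 and 1.04 in GFP+ and 1.10 and 1.06 in RFP+ labelled libraries, where counting alone gives a ratio of 1. Its share of cells with a count was 53.9% and 56.1% under a Poisson model with the same mean in GFP+ labelled libraries and 61.8% and 62.0% in RFP+ labelled libraries, each slightly above the measured share. Summed over the 10 genes, thinned cells held on average 1.70 and 1.76 counts in GFP+ and 2.17 and 2.21 counts in RFP+ labelled libraries. Cells with none of the 10 genes made up 19.3% and 16.3% in GFP+ and 13.6% and 13.2% in RFP+ labelled libraries, where the Poisson model gives 18.3% and 17.3% in GFP+ and 11.4% and 10.9% in RFP+ labelled libraries. In RFP+ labelled libraries the exact 95% intervals of that share, 11.9 to 15.4% and 11.5 to 15.1%, lay above the Poisson values. In GFP+ labelled libraries the intervals, 17.3 to 21.5% and 14.3 to 18.5%, held them. The variance over the mean of the sum was 1.07 and 0.971 in GFP+ labelled libraries and 1.17 and 1.25 in RFP+ labelled ones.

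**Figure D3:**
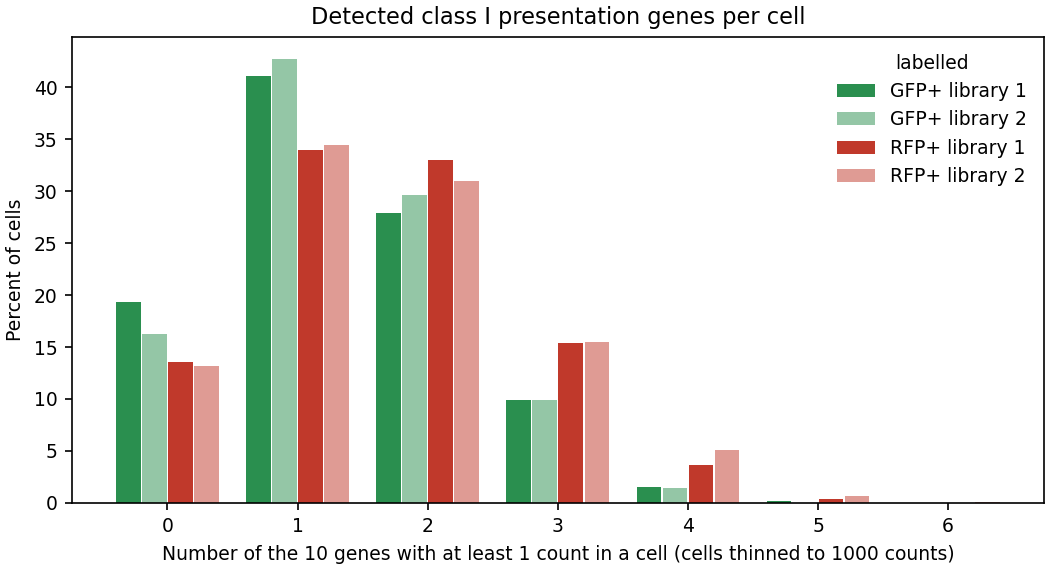
Percent of cells, thinned to 1000 counts, by how many of the 10 genes had at least 1 count, for GFP+ (left bars) and RFP+ (right bars) labelled libraries. Cells with 3 of the genes made up 9.94% and 9.89% in GFP+ labelled libraries and 15.4% and 15.5% in RFP+ labelled libraries.

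Across cells of a library the genes hardly tracked each other. The mean Pearson's r over the 4 libraries of log counts in thinned cells was between -0.0078 and 0.038 for the 10 pairs of B2m, H2-K1, H2-D1, Psme1 and Psme2, the genes of the 10 with at least 100 CPM. Of 1914 genes at that level, the 5 most like B2m were Tmem59, Cd63, CUSTOM_RFP, Spp1 and Gpd2, with mean r of 0.0468 to 0.0497. Correlations this weak in sparse counts are no finding, and the cells share a library and a fixed depth.

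Cells were next split within each library by their epithelial markers, to ask whether the genes follow that state inside a population. Epithelial-high cells held on average 3.17 and 3.09 marker counts in GFP+ and 5.64 and 5.90 in RFP+ labelled libraries, and epithelial-low cells 0 and 0 in GFP+ and 1.21 and 1.23 in RFP+ labelled libraries. Of 7567 genes, 1.53% were called between the classes, and 0 of the 7 (edgeR), with 1 at an unadjusted p under 0.05 and 0 by DESeq2. H2-K1 had 332 CPM in high and 278 CPM in low cells of GFP+ library 1, 308 and 279 CPM in GFP+ library 2, 444 and 419 CPM in RFP+ library 1, and 502 and 425 CPM in RFP+ library 2. It was higher in epithelial-high cells of 4 of 4 libraries, with a log2 fold of 0.17 (95% interval 0.016 to 0.32, edgeR adjusted p = 0.39). H2-D1 was also higher in 4 of 4 libraries (log2 fold 0.15, edgeR adjusted p = 0.602), and neither passed the correction.

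B2m was higher in the epithelial-high cells of 3 of 4 libraries and lower in GFP+ library 1, with a log2 fold of -0.0026 between the classes and a 95% interval of -0.12 to 0.11. Psme2 was lower in epithelial-high cells of 4 of 4 libraries at a log2 fold of -0.14 (edgeR adjusted p = 0.645). The difference of this split between the populations was called for 0.119% of genes and for 0 of the 7, with 0 at an unadjusted p under 0.05 and 0 by DESeq2. The smallest unadjusted p was 0.0517 for B2m, whose log2 fold was -0.12 in GFP+ and 0.09 in RFP+ labelled libraries (edgeR adjusted p of the difference = 0.85). That difference of -0.21 rests on GFP+ library 1: it was -0.04 without that library and -0.37 without GFP+ library 2, and it passed in neither (edgeR adjusted p = 0.993 and 0.67).

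A split by other interferon-induced genes gave small differences too. Of the 33 genes of that list, Ifitm3 and Ly6e gave 78.4% and 76.8% of the list's counts in GFP+ and 78.6% and 79.8% in RFP+ labelled libraries, so the split follows mainly that pair. High cells held at least 2 list counts in GFP+ and 3 in RFP+ labelled libraries, and low cells at most 1. Their means in high cells were 2.75 and 2.83 in GFP+ and 3.98 and 3.97 in RFP+ labelled libraries. In both splits counts this few let counting error place cells in either class. How far that shrank the folds was not tested. Between interferon-high and interferon-low cells 0.384% of 7546 genes were called, and 0 of the 7 (edgeR), with 1 at an unadjusted p under 0.05 and 0 by DESeq2. Psmb8 was higher in the interferon-high cells of 4 of 4 libraries, at a log2 fold of 0.42 (95% interval 0.006 to 0.84, edgeR adjusted p = 0.665). It had 29.2 CPM in high and 28.6 CPM in low cells of GFP+ library 1, 47.5 and 38.8 CPM in GFP+ library 2, 57.7 and 29.8 CPM in RFP+ library 1, and 47.6 and 36.8 CPM in RFP+ library 2. With another random thinning its log2 fold was 0.25. B2m was higher in 4 of 4 libraries by a log2 fold of 0.09 (95% interval -0.0072 to 0.18, edgeR adjusted p = 0.731). The difference of this split between populations was called for 0 genes by edgeR and 0 by DESeq2, and none of the 7 had an unadjusted p under 0.05.

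**Figure D4:**
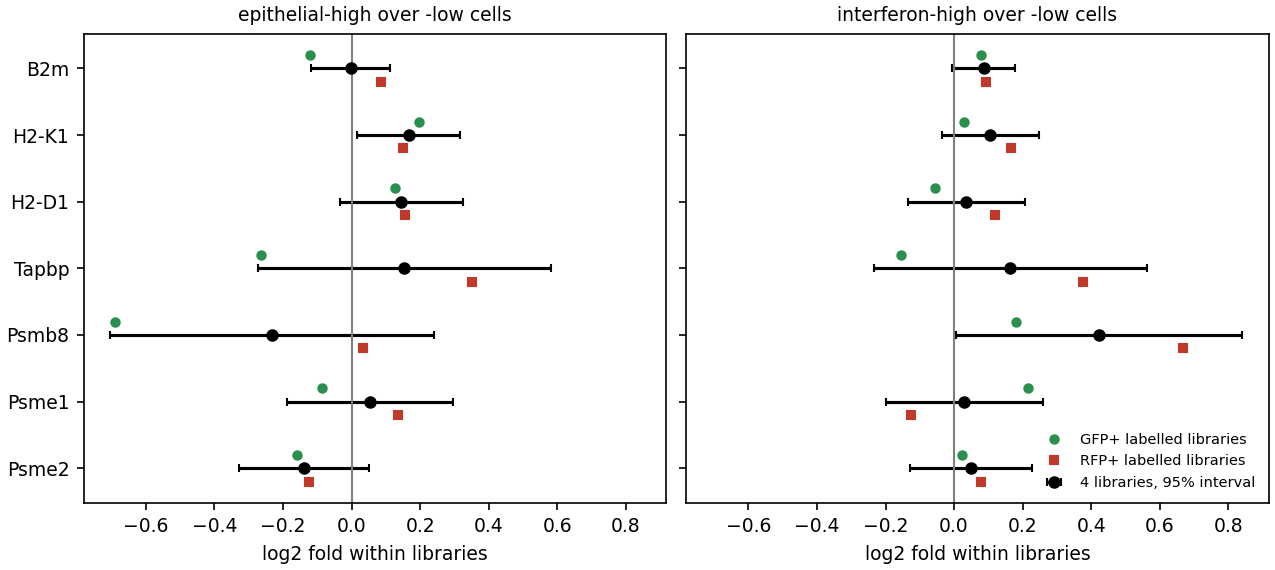
Log2 fold between high and low cells within libraries for the 7 tested genes, split by epithelial markers (left panel) and by interferon-induced genes (right panel), with 95% intervals over 4 libraries (black) and the values within GFP+ (circles) and RFP+ (squares) labelled libraries. Psmb8 has the widest intervals, and H2-K1 in the left and Psmb8 in the right panel have intervals that do not reach 0.

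Among genes that assemble the class I molecule and supply its peptides, more rose than fell. Of 14 such genes 13 were tested, 5 rose, 1 fell and 7 were not called, with a median log2 fold of 0.21 beside 0.0024 over all genes. The 5 that rose are 38.5% of those tested, beside 15.7% of all genes, and the 1 that fell is 7.69%, beside 14.9%. Those that rose were Erap1, which trims peptides in the endoplasmic reticulum (log2 fold 0.54 ± 0.13, edgeR adjusted p = 0.00122), Pdia3, the disulphide partner of tapasin (0.43), Npepps, a cytosolic aminopeptidase (0.37), Canx, the chaperone calnexin (0.27), and Hspa5, a general chaperone of that compartment (0.25). Pdia3 was at 1383 and 1361 CPM in GFP+ labelled libraries, against 1029 and 987 CPM in RFP+ labelled libraries. Transcripts of tapasin and of its partner Pdia3 therefore moved in opposite directions. Sec61b fell (log2 fold -0.17), but its sign turned under length and GC offsets (0.025). Canx, Pdia3 and Hspa5 serve many secreted proteins besides class I. Erap1, Npepps and Sec61b lost the call with DESeq2 (adjusted p = 0.088, 0.113 and 0.209). Without GFP+ library 2, Npepps had a log2 fold of 0.17 and did not pass (edgeR adjusted p = 0.288).

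Of 42 subunits, regulators and assembly factors of the standard proteasome, all tested, 5 rose and 13 fell, with a median log2 fold of -0.11. That is 11.9% rising and 31.0% falling, beside 15.7% and 14.9% of all genes. Psmd3, a regulatory particle subunit, fell by 0.60 on the log2 scale, and Psmd9, an assembly chaperone, fell by 0.42. Psme4, which encodes the alternative cap PA200, rose by 0.45. With length and GC offsets 8 of the 42 rose and 5 fell, beside 946 higher and 946 lower of all 7595 genes tested. Psmb6 was then at -0.11 (edgeR adjusted p = 0.145). Psmd9 lost the call with DESeq2 (adjusted p = 0.196). The call for Psmd9 was lost without GFP+ library 1 (edgeR adjusted p = 0.128) or without RFP+ library 1 (0.061).

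Of 28 regulators of class I transcription 22 were tested, 3 rose and 4 fell, shares close to those of all genes, with a median log2 fold of -0.0008. Nlrc5, the transactivator of class I genes, had 0 and 1 counts in GFP+ and 0 and 0 counts in RFP+ labelled libraries. Jak1, a kinase of interferon receptors, rose by 0.32 (edgeR adjusted p = 0.000795), a call that was lost under length and GC offsets (0.18, edgeR adjusted p = 0.0709) and with DESeq2 (adjusted p = 0.0661). Named after their values were seen, Jak2 (1.26) also rose, and Ifngr2 (-0.63), Irf9 (-0.74) and Socs3 (-0.89) fell. Jak2 was at 12.7 and 18.4 CPM in GFP+ labelled libraries, against 6.17 and 6.69 CPM in RFP+ labelled libraries. Nfkb1, a subunit of the factor that binds kB motifs, fell by 0.37 (edgeR adjusted p = 0.0363), a call that rests on RFP+ library 1: without it the log2 fold was -0.09 (edgeR adjusted p = 0.762). Calls for Irf9 and Socs3 were each lost without at least 2 of the 4 libraries in turn. With DESeq2 the calls for Ifngr2 and Nfkb1 were lost (adjusted p = 0.101 and 0.327). Creb1 and Eed were not called, at 0.02 and -0.18.

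Interferon-induced genes outside the presentation machinery fell in part. Of 33 genes 14 were tested, 0 rose and 5 fell, with a median log2 fold of -0.36. Those that fell are 35.7% of the tested ones, beside 14.9% of all genes. The 5 were Ly6e (-0.56), Ifi27 (-0.46), Ifitm3 (-0.36), Isg15 (-0.77) and Bst2 (-1.03). Bst2 was at 10.4 and 18.4 CPM in GFP+ labelled libraries, against 33.4 and 24.8 CPM in RFP+ labelled libraries. With length and GC offsets 6 of the 14 fell and 0 rose, beside 12.5% of all genes called lower. In cells with matched epithelial counts Ly6e and Ifitm3 kept the call. There Isg15, Bst2 and Ifi27 lost it (edgeR adjusted p = 0.219, 0.0583 and 0.574). Isg15 also lost it with DESeq2 (adjusted p = 0.106).

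Other ways for immune cells to read these cells were sparse. Of 16 further class I like genes 13 had a row, and 1, H2-T22, had enough counts for the test and was not called (log2 fold 0.15, edgeR adjusted p = 0.685). H2-T23, the mouse Qa-1 gene, had 27 and 22 counts in GFP+ labelled libraries and 21 and 24 in RFP+ labelled libraries. H2-Q4 had 10 and 16 counts in GFP+ and 26 and 16 in RFP+ labelled libraries. A list of surface genes read by immune cells held Cd47, the signal that restrains phagocytes. It fell by 0.46 on the log2 scale (edgeR adjusted p = 8.07e-05). GFP+ labelled libraries were at 95.1 and 102 CPM, against 137 and 132 CPM in RFP+ labelled ones. Pvr fell as well (log2 fold -0.63), and its call was lost without GFP+ library 1 (edgeR adjusted p = 0.12) or without RFP+ library 2 (0.108). Of that list 3 of 13 genes were tested, 0 rose and 2 fell, beside 14.9% of all genes called lower. With DESeq2 the call for Pvr was lost (adjusted p = 0.234). Fas was not called (log2 fold -0.46, edgeR adjusted p = 0.194). Cd274, which encodes PD-L1, had 1 and 0 counts in GFP+ and 1 and 1 counts in RFP+ labelled libraries.

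Class II genes were nearly silent, and 0 of 7 could be tested. Cd74 had 0 and 0 counts in GFP+ and 1 and 0 counts in RFP+ labelled libraries, and Ciita had none in any. Markers of immune cells, which carry class I genes at high levels, summed to 6.93 and 8.23 CPM in GFP+ and 11.4 and 14.1 CPM in RFP+ labelled libraries over the 8 of 14 with a row. Lyz2 was at 0 in every library, Ptprc had 0 and 0 counts in GFP+ and 2 and 0 in RFP+ labelled libraries, and Itgam gave the most counts, 12 and 13 in GFP+ and 16 and 30 in RFP+ labelled libraries. Endothelial markers had at most 2 counts per gene in any library. Fibroblast markers, 5 of 6 with a row, summed to 19.2 and 18.4 CPM in GFP+ and 8.44 and 5.69 CPM in RFP+ labelled libraries. The part of these sums in the class I results was not tested.

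The genes that neighbour the heavy chains were listed apart, since Psmb9, Tap1, Psmb8 and Tap2 lie in that interval. Of these, Psmb8 alone was tested, and it was not called. Of the 79 other genes between H2-K1 and H2-D1, 20 were tested, 0 rose and 5 fell (25.0%, beside 14.9% of all genes), and 18 had a log2 fold below 0, beside 3782 of all 7595. Their median was -0.27, and -0.15 with length and GC offsets, under which 5 were again called lower, beside 12.5% of all genes. Those that fell include Clic1, a chloride channel (-0.62), Csnk2b, the regulatory subunit of casein kinase (-0.58), Ddx39b, an RNA helicase of mRNA export (-0.52), and Lsm2, a subunit of an RNA-binding ring (-0.51). The other was Abhd16a (-0.90), named after its value was seen, and its call was lost without RFP+ library 1 (edgeR adjusted p = 0.17).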

How the data were processed

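Polyadenylated RNA of sorted Tri-PyMT cells was captured cell by cell in Drop-seq and made into Nextera libraries, per the labels' protocols. The submitters' processing notes name GRCm38 as the build. The authors deposited raw counts per gene and cell. How reads were aligned and counted, with or without strand and molecular identifiers, is not given in the sources used here. The lanes of a library stand pooled in the table, and the library is the replicate. No doublets were removed.

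Cells below 500 counts or with 20% or more of mitochondrially encoded counts were dropped. Library sums were compared by the quasi-likelihood test of edgeR 4.0.16 (R 4.3.3, TMM), and p-values were adjusted over all genes by Benjamini-Hochberg, with a threshold of 0.05. Genes needed 10 CPM in either population and 20 counts in all. SEs were derived from the log2 fold and its F statistic, whose dispersions are moderated across genes, and are not a gene's own spread. Cells were thinned to 1000 counts for shares and splits. High cells lay at or above the 67th percentile of a list's counts in their library, low cells at or below the 33rd, with library as a block in edgeR. Alternatives included DESeq2 1.42.0, other filters, offsets for length and GC content (95.4% of tested genes had a value) and each library left out. The scripts were tested on simulated data. Named genes are the 10, their standard counterparts, Psmb10, Nlrc5, and per list the 4 largest changes among genes with at least 50 CPM. Others are said to be named after their values were seen, as are Hspa5, Sec61b, Isg15, Bst2, Pvr, Fas, H2-T22, Psme2b and genes given only as counts. The 10 genes and all lists were chosen with earlier results of these data known, and the motifs with the sequences in view. Not every gene counted in a list is reported here by name.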

Additional observations from a re-analysis of the deposited data

How the results depend on the processing

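The log2 folds of the 7 tested genes were below 0 under all 12 alternatives to the population comparison, except that Psmb8 was not tested at a filter of 50 CPM. Among the 12 are fits without each library in turn, which leave 1 library in a population. That population then shows no spread, so calls kept or lost in these fits carry little weight. B2m was called lower under all 12, with log2 folds of -0.45 to -0.20. H2-K1, Tapbp and Psme1 lost the call in cells with matched epithelial counts, where 1 of the 7 was called, and in no other of the 12. H2-D1 lost it there (-0.26, edgeR adjusted p = 0.482), with DESeq2 (-0.29) and with length and GC offsets (-0.15). Psme2 lost it in 6 of the 12, with adjusted p of up to 0.69. Over all genes, the count called higher was 353 with DESeq2, 735 in cells thinned to 1000 counts and 122 in matched cells, beside 1190. The count called lower was 368 with DESeq2, 670 in thinned cells and 119 in matched cells, beside 1129. Without each library in turn, 872 to 923 genes were higher and 797 to 920 lower. Among the named genes that were called, signs turned in matched cells for Jak1 (-0.12), Nfkb1 (0.23) and Npepps (-0.0149), and under length and GC offsets for Sec61b (0.025). Matched cells are fewer; the other causes were not tested. Of the 29 other named genes that were called, 10 of 25 with a value lost the call with DESeq2, 21 of 26 in matched cells and 0 of 29 with DESeq2 size factors.

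No paired analysis was possible because the libraries of the populations share 1 number in their column names. The splits called 0 of the 7 genes under every alternative run. Classes set at the median gave the same epithelial classes as the main split, so that alternative could not differ. Depth limits Tap1, Tap2 and Psmb9, with 5 to 16 counts per library.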
